A study of Mus musculus with 12 samples.

Results

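The 10 genes described here encode the enzymes that break down stored triglyceride in fat cells and the proteins that coat the lipid droplet: Pnpla2, Lipe, Mgll, Abhd5, G0s2, Plin1, Plin2, Plin4, Plin5 and Cidec. They were chosen by name, and every probe whose RefSeq accession belongs to one of them was used, which gave 16 probes of 55681 on the array and 10 genes of 20887 that could be named. The tissue was white fat of the gonadal depot, taken from C57BL/6N males at 59 to 67 days, in 4 genotypes obtained by interbreeding: wild type (WT), mice deficient in Gadd45a (Gadd45a-KO), mice deficient in Ing1 (Ing1-KO) and mice deficient in both (DKO). Each genotype had 3 one-colour arrays, and each array held RNA pooled from 3 animals, so that 9 animals stand behind a genotype and single animals are not seen. No cell-type-specific promoter or Cre is named in the labels, and the arrays hold whole tissue with all its cell types. Gadd45a is a stress-induced gene whose protein acts in DNA repair and in the removal of DNA methylation. The Ing1 protein binds a methylated lysine of histone H3. The design asks what the loss of either gene, and of both, does to gene expression in this fat depot.

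Fat cells store triglyceride in a large droplet and release it as fatty acids and glycerol when adrenergic signals raise cyclic AMP. Breakdown runs in steps: Pnpla2 (adipose triglyceride lipase) removes the first fatty acid, Lipe (hormone-sensitive lipase) acts on the diglyceride that remains, and Mgll (monoglyceride lipase) finishes the reaction. Abhd5 activates Pnpla2 and G0s2 inhibits it. The perilipins Plin1, Plin2, Plin4 and Plin5 coat the droplet and decide which of these proteins reach its surface, with Plin1 holding Abhd5 until it is phosphorylated and Plin5 being typical of oxidative tissues. Cidec drives the fusion of droplets into the single large one of a white fat cell.

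The arrays differed in brightness, with medians of the processed signal from 39.3 intensity units (WT replicate 2) to 68.8, and between 58.2% and 68.1% of spots were well above background. All 10 genes, through all 16 probes, were well above background on all 12 arrays, and none of the probes was saturated. The test covered 31453 features, which are named genes or probes without a name. The Ing1 probe checked the labels: it read between 12.37 and 12.78 on the 6 arrays labelled as carrying Ing1 and between 9.13 and 9.60 on the other 6 (all signals are log2 intensities scaled to a common 75th percentile). The Gadd45a probe went the other way. It averaged 9.51 ± 0.25 (SD, n = 3) in WT and 9.20 ± 0.12 in Ing1-KO, against 10.17 ± 0.11 and 10.61 ± 0.01 on the arrays labelled Gadd45a-KO and DKO, and whether the probe lies in the deleted stretch is not known, so that the Gadd45a labels are not checked by it. Of 12 white adipocyte markers, all 12 were above background on every array, Adipoq, Lep and Pparg among them. Of 8 epididymis and testis markers, Crisp1, Adam7, Lcn5 and Defb2 were above background on none, while Rnase10 and Prm2 were above it on 12, Tnp1 on 10 and Prm1 on 9.

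Arrays without Ing1 carried more message of 5 of these genes, and among the brightest probes that of G0s2, the inhibitor of the first lipase, had the largest difference over all 12 arrays. A dimmer Cidec probe differed more, and so did Plin5 without the 3 arrays highest in muscle markers. The effect of Ing1 loss was taken as the mean of 2 differences, Ing1-KO less WT and DKO less Gadd45a-KO, so that 6 arrays without Ing1 stand against 6 with it. A gene is called when its limma p, adjusted over all 31453 features by Benjamini-Hochberg, is below 0.05. By this rule 5 of the 10 genes rose with Ing1 loss (G0s2, Plin5, Lipe, Plin1 and Plin4) and none fell. Over all features 6.93% were called higher and 9.09% lower. The log2 difference was positive for all 10 genes against 44.6% of all features, and the median difference was 0.50 against -0.04 over all features. An unadjusted p below 0.05 was reached by 9 of the 10, Plin2 being the exception, against 32.9% of all features. In this tissue mixture, a change in the number of cells of a type and a change in message per cell cannot be told apart.

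**Figure D1:**
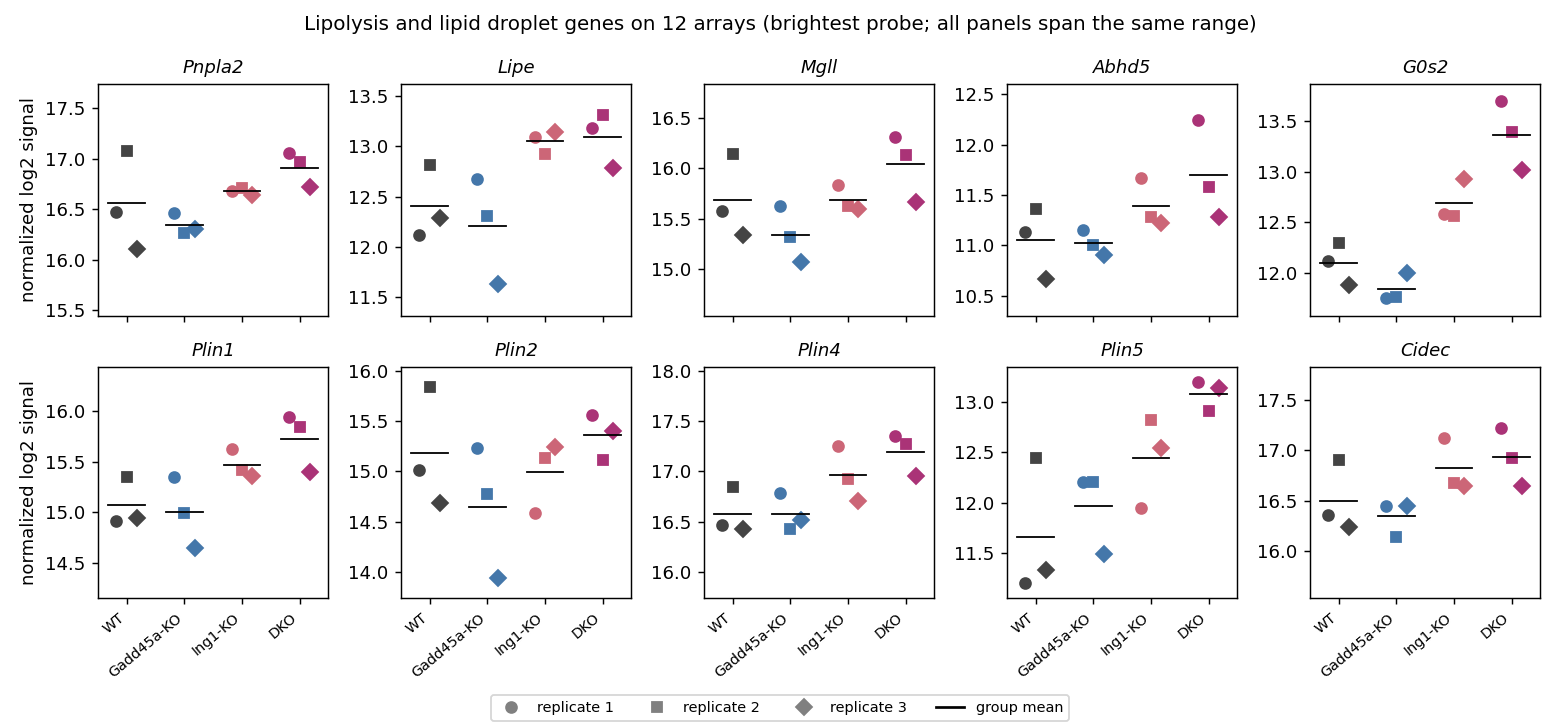
Normalized log2 signal of each gene (brightest probe, vertical axes of equal span) on the 12 arrays by genotype, with 1 point per array, its shape giving the replicate number, and a line at the mean of the 3 arrays. For G0s2 all 6 arrays without Ing1 lie above all 6 with it, and WT replicate 2 is the highest WT point for every gene.

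G0s2 binds Pnpla2 and blocks its activity, and its message read 12.12, 12.29 and 11.88 on the WT arrays, 11.75, 11.76 and 12 on the Gadd45a-KO arrays, 12.58, 12.56 and 12.93 on the Ing1-KO arrays and 13.70, 13.40 and 13.02 on the DKO arrays. No array with Ing1 reached the lowest array without it, and every DKO array was above every Ing1-KO array. The log2 difference with Ing1 loss was 1.06 ± 0.12 (SE), or 2.09-fold (limma, adjusted p = 0.0023). It was 1.20, 0.96 and 1.03 within slides 1, 2 and 3, each of which carries 1 array of every genotype. The call held when any single array was left out.

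Pnpla2, the lipase that G0s2 inhibits, read 16.47, 17.08 and 16.11 in WT, 16.46, 16.26 and 16.30 in Gadd45a-KO, 16.68, 16.71 and 16.64 in Ing1-KO and 17.06, 16.97 and 16.72 in DKO. The groups overlapped through WT replicate 2, which was the highest of all 12 arrays. The difference with Ing1 loss was 0.35 ± 0.14, with a 95% interval of 0.04 to 0.66 (limma, adjusted p = 0.108), and without WT replicate 2 it was 0.48 and called (limma, adjusted p = 0.00981). To set the inhibitor beside its target, the log2 signal of Pnpla2 was subtracted from that of G0s2 on the same array. The level of that difference has no meaning, since probes differ in brightness, but its change is free of any shift of the whole array. It averaged -4.46 ± 0.30 (SD, n = 3) in WT, -4.50 ± 0.21 in Gadd45a-KO, -3.99 ± 0.24 in Ing1-KO and -3.54 ± 0.17 in DKO. All 6 arrays without Ing1 lay above all 6 with it. The shift was 0.72, a 1.64-fold rise of the G0s2 signal relative to that of Pnpla2. Its exact two-sided permutation p was 0.005, the smallest that 400 arrangements within the Gadd45a genotypes can give, with arrays exchanged across slides. The shift was 0.80, 0.79 and 0.56 within the 3 slides, and 0.46 in the authors' deposited values (exact permutation p = 0.02), the lowest of any alternative, shared with normexp correction of the median spot signals followed by quantile normalization. Each gene has 1 probe, with a mean signal of 12.50 for G0s2 and 16.62 for Pnpla2. For Cidec the brighter probe (16.65) changed by 0.45 with Ing1 loss and the dimmer (13.63) by 1.17. For Abhd5 the change also grew as probes dimmed, while for Mgll it did not follow brightness in order. The part of probe brightness in the shift was not tested.

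**Figure D2:**
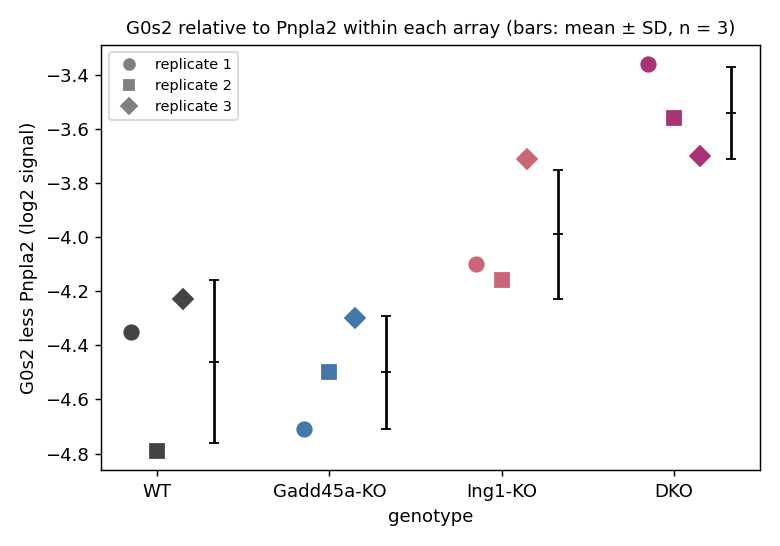
Log2 signal of G0s2 less that of Pnpla2 on each array, by genotype, with points for the 3 arrays and bars for mean ± SD. The DKO points, from -3.70 to -3.36, lie above the WT points, from -4.79 to -4.23.

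Among the other enzymes and the activator, Lipe was called. Lipe read 12.12, 12.81 and 12.29 in WT, 12.67, 12.31 and 11.63 in Gadd45a-KO, 13.09, 12.92 and 13.14 in Ing1-KO and 13.18, 13.31 and 12.78 in DKO. Of the 6 arrays without Ing1, 5 were above all 6 with it, and DKO replicate 3 was 0.03 below WT replicate 2. The difference with Ing1 loss was 0.76 ± 0.18, or 1.7-fold (limma, adjusted p = 0.0189), and the call held with any single array left out. Mgll, through its brightest probe, lay between 15.07 and 16.14 with Ing1 (median 15.46) and between 15.60 and 16.31 without it (median 15.75), groups that overlapped, and its difference was 0.35 ± 0.16 (limma, adjusted p = 0.147). Abhd5 lay between 10.67 and 11.36 with Ing1 (median 11.07) and between 11.22 and 12.24 without it (median 11.43), and its difference of 0.51 ± 0.17 just missed the threshold (limma, adjusted p = 0.0575).

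Of the 4 perilipins, 3 were called. Plin1, the main coat protein of the fat cell droplet, read 14.91, 15.35 and 14.94 in WT, 15.35, 14.99 and 14.65 in Gadd45a-KO, 15.63, 15.42 and 15.36 in Ing1-KO and 15.94, 15.85 and 15.40 in DKO. The groups with and without Ing1 did not overlap, by a margin of 0.01 between Gadd45a-KO replicate 1 and Ing1-KO replicate 3. Its difference was 0.57 ± 0.14 (limma, adjusted p = 0.0236). Groups did not overlap, with the arrays without Ing1 higher, for G0s2 and Plin1, 2 of the 10 genes, against 3.38% of all features. Plin4, which coats young droplets in white fat, read 16.47, 16.85 and 16.43 in WT, 16.79, 16.43 and 16.52 in Gadd45a-KO, 17.25, 16.92 and 16.71 in Ing1-KO and 17.35, 17.27 and 16.95 in DKO. Of the arrays without Ing1, Ing1-KO replicate 3 alone lay within the range of the arrays with Ing1, and the difference was 0.49 ± 0.12 (limma, adjusted p = 0.0248).

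Plin5 read 11.20, 12.44 and 11.33 in WT, 12.21, 12.21 and 11.49 in Gadd45a-KO, 11.95, 12.82 and 12.54 in Ing1-KO and 13.20, 12.91 and 13.14 in DKO. It spanned 1.99 log2 units over the 12 arrays, and its WT arrays were the most spread (SD 0.68, n = 3) while its DKO arrays were close together (SD 0.15). The difference with Ing1 loss was 0.95 ± 0.23, or 1.93-fold (limma, adjusted p = 0.0211), and it was 0.87, 0.54 and 1.43 within the 3 slides. Plin2 is the perilipin found in nearly every cell type. It read 15.01, 15.84 and 14.69 in WT, 15.23, 14.78 and 13.94 in Gadd45a-KO, 14.59, 15.13 and 15.24 in Ing1-KO and 15.56, 15.11 and 15.40 in DKO. Its highest and its lowest array both carried Ing1, and its difference was 0.26 ± 0.24, with an interval of -0.26 to 0.78 (limma, adjusted p = 0.483), being -0.04, -0.19 and 1.01 within the slides. The other 9 genes were higher without Ing1 within all 3 slides, a count for which the share of all features was not computed. Cidec lay between 16.14 and 16.90 with Ing1 (median 16.40) and between 16.65 and 17.22 without it (median 16.80), and its difference was 0.45 ± 0.15 (limma, adjusted p = 0.0543).

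These calls rest on few arrays. Left out one at a time, Gadd45a-KO replicate 3 ended the calls of Plin1, Plin4 and Plin5, and WT replicates 1 and 3, Ing1-KO replicate 1 and DKO replicates 1 and 2 each ended those of Plin1 and Plin4, as Gadd45a-KO replicate 2 did for Plin4. Their adjusted p then lay between 0.0509 and 0.063 (limma), with log2 differences of 0.42 to 0.54 for Plin1 and Plin4 and 0.83 for Plin5. In these fits 2.97% to 3.91% of all features were called higher. Without WT replicate 2 the count was 9, all but Plin2, where 10.6% of all features were called higher. Without DKO replicate 3 it was 7, where 9.61% were. With the slide as a block the count was 7, with Abhd5 (adjusted p = 0.0196, limma) and Cidec (0.0466) added to the 5. The share of all features called higher was then 8.78%. With the row of the array on its slide as a block, G0s2 alone was called, against 0.0509% of all features called higher. Among the arrays with Ing1, WT replicate 2 was the highest for 9 of the 10 genes, Plin1 being the exception, and its genes lay a median of 0.40 above the WT means. Skeletal muscle markers were high on Ing1-KO replicate 1, DKO replicate 1 and Gadd45a-KO replicate 1, by 3.57, 2.30 and 1.17 above the mean of the list over all arrays, while the other 9 lay between -0.98 and -0.41. Without those 3 arrays, 0 of the 10 genes and 1 of all features were called by limma, 5 of the 10 had an unadjusted p below 0.05 against 23.2% of all features, and the median difference of the 10 was 0.44. In that fit G0s2 differed by 0.99 (adjusted p = 0.067), Plin5 by 1.10 and Lipe by 0.85. Plin5, which muscle also expresses, read 11.95 on Ing1-KO replicate 1, the array highest in muscle markers and its lowest without Ing1, and 13.20 on DKO replicate 1, the array second in muscle markers and its highest of all 12. The part of muscle in its values was not tested.

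The 5 called genes lie on 3 chromosomes, and Plin4 and Plin5 are neighbours on chromosome 17, 1648 bases apart in the GRCm38.p6 annotation. The promoters of the 5 are shown because each was called for Ing1 loss. The stretches come from RefSeq's GRCm38.p6 sequence and run 5′ to 3′ up to the base before a start listed there, all on the minus strand, for Lipe and Plin5 from the more upstream of the 2 starts in RefSeq's promoter table. The gene annotation of Lipe, Plin1, Plin4 and Plin5 reaches further upstream than the starts used, so that other starts of these genes are not covered. They are chr1:193273189-193273288 for G0s2, chr7:25395988-25396147 for Lipe, chr7:79732777-79732876 for Plin1, chr17:56109783-56109882 for Plin4 and chr17:56117549-56117648 for Plin5. Capitals mark matches, on either strand, to the motifs named after the sequences.
G0s2: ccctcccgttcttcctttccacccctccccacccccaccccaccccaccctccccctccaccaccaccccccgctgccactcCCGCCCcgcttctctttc
Lipe: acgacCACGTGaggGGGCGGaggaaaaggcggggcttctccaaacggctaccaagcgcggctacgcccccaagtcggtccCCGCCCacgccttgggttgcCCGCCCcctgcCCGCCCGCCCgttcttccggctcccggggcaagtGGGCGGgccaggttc
Plin1: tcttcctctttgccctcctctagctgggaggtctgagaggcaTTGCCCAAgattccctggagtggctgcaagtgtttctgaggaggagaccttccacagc
Plin4: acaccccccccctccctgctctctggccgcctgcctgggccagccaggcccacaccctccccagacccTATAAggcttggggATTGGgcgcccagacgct
Plin5: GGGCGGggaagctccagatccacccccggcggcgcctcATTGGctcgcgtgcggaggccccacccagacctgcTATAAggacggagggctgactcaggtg

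Both strands of the 250 bases before each start in that table were searched, in 14 windows of the 10 genes and 32851 windows in all. TATAA, the core of the TATA box, lay 32 to 28 bases before the start of Plin4 and 27 to 23 bases before that of Plin5, and in no other window of the 10 genes, against 22.8% of all windows. Each of those genes also held CCAAT nearer than 100 bases to the start, as did Plin2, a motif of 33.8% of all windows. TTGCNNAA, part of the sites that C/EBP factors bind, was found 2 times in the Plin1 window and once for Cidec, against 9.56% of windows. The E-box CACGTG stood 155 to 150 bases before the upstream Lipe start and in an Mgll window (6.02% of all). GGGCGG, the Sp1 box, was in 7 of the 14 windows, which belong to 6 genes, against 32.7% of all windows. The upstream Lipe window held 6 copies, of which 2 overlap each other. The repeat of AGGTCA with 1 base of any kind between its copies, the form bound by PPAR and RXR, and its looser form with AGGNCA in place of AGGTCA, were in none of the 14 windows, against 0.0335% and 0.338% of all, which says only that these letters are not within this short reach. The G0s2 window held 11 CG pairs, against a median of 6 over all windows. Windows of Mgll (23 and 40), Abhd5 (22), Pnpla2 (12), Plin5 (11 and 14) and the upstream Lipe start (18) held as many or more, and the other windows held fewer.

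In DKO against WT, the comparison of both losses with none, G0s2 alone of the 10 was called. It rose 2.42-fold (log2 1.28 ± 0.18; limma, adjusted p = 0.0338), where 0.0827% of all features were called higher and 0.0795% lower. Plin5 differed by 1.42 ± 0.32, more than G0s2 but with a larger error (limma, adjusted p = 0.0713), Lipe by 0.68 ± 0.25, Plin1 by 0.66 ± 0.20, Abhd5 by 0.65 ± 0.24 and Plin4 by 0.60 ± 0.18. The smallest difference was that of Plin2, 0.18 ± 0.34. All 10 were positive against 45.3% of features, with a median of 0.63, and 6 had an unadjusted p below 0.05 against 23.0%. The DKO arrays lay wholly above the WT arrays for G0s2, Plin1, Plin4 and Plin5, 4 of the 10, against 9.66% of features. The G0s2 call ended when any of 8 arrays was left out, these being DKO replicates 1 and 2, WT replicates 1 and 3, Ing1-KO replicates 2 and 3, and replicates 1 and 2 of Gadd45a-KO. The difference then lay between 1.12 and 1.29, with an adjusted p of 0.0512 to 0.142 (limma). In these fits at most 0.00318% of all features were called higher. The adjusted p was also above the threshold in other settings, at 0.27 without the 3 arrays high in muscle markers, 0.286 with the array row as a block, 0.0602 with the array column as a block, 0.0632 without trended and robust variances and 0.251 from the WT and DKO arrays alone. With the slide as a block G0s2 (adjusted p = 0.0332, limma) and Plin5 (0.0454) were called, against 1.23% of all features called higher. The count of called genes reached 4 without WT replicate 2, where 2.53% of all features were called higher. It reached 5 without DKO replicate 3, where 4.31% were.

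In DKO against Gadd45a-KO, which measures Ing1 loss among mice labelled as lacking Gadd45a and shares its arrays with the 6 against 6 comparison, G0s2, Plin1, Lipe, Plin5 and Plin4 were called, 5 of the 10, and none was called lower, against 6.49% of features called higher and 8.47% lower. All 10 were positive against 47.2% of features, and 9 had an unadjusted p below 0.05 against 32.9%. G0s2 rose 2.9-fold (1.54 ± 0.18; limma, adjusted p = 0.00377), and on the log2 scale Plin5 rose by 1.12 ± 0.32, Lipe by 0.88 ± 0.25, Plin1 by 0.73 ± 0.20 and Plin4 by 0.61 ± 0.18, the last 4 with adjusted p between 0.0335 and 0.0395. Plin2 differed by 0.71 ± 0.34 (limma, adjusted p = 0.166), its largest difference in any comparison between groups. For 9 of the 10 the 3 DKO arrays lay above the 3 Gadd45a-KO arrays, against 16.5% of features, Plin2 being the one that overlapped. Left out, each of Gadd45a-KO replicates 2 and 3 and DKO replicates 1 and 2 reduced the calls to G0s2 alone. Of all features, 1.39%, 0.649%, 0.976% and 0.693% were then called higher. Each of Ing1-KO replicates 2 and 3 reduced the calls to 3 genes, against 4.35% and 4.28% of all features called higher. WT replicate 1 ended the call of Plin4 (5.07% of all features called higher) and Gadd45a-KO replicate 1 that of Plin5 (5.31%). With the slide as a block the count was 7, with Mgll (adjusted p = 0.0231, limma) and Abhd5 (0.0239) added, against 8.57% of all features called higher. Without WT replicate 2 or DKO replicate 3 the count was 8, though the latter ended the call of Plin5, and without WT replicate 3 it was 7. The shares of all features called higher in these 3 fits were 9.8%, 9.68% and 6.21%. The lost calls had adjusted p between 0.0524 and 0.155 (limma). A single gene was called without trended and robust variances, against 4.46% of all features called higher. The count was 2 without the filter on dim probes (2.73% of all features) and 2 from the 2 groups alone (0.754%). None was called with the array row as a block, where 0.00318% of all features were called higher. Without the 3 arrays high in muscle markers 0 were called by limma, 7 having an unadjusted p below 0.05 against 24.7% of features, and the median of the 10 was 0.75.

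**Figure D3:**
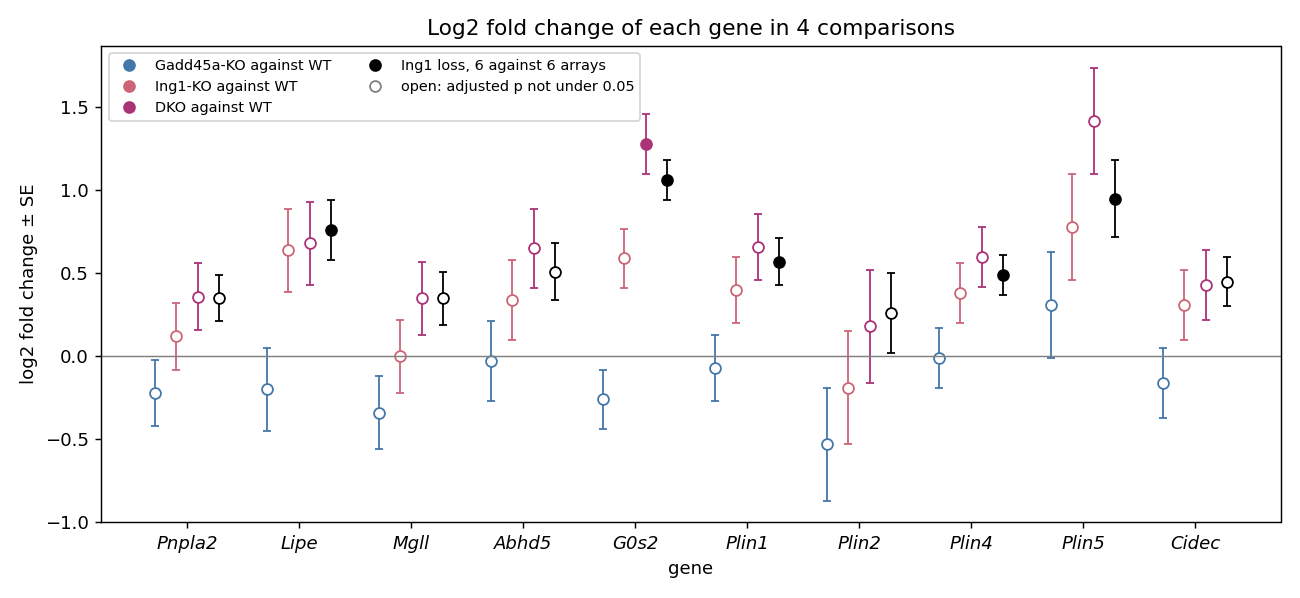
Log2 fold change (± SE) of each gene in Gadd45a-KO, Ing1-KO and DKO against WT and for Ing1 loss over 6 against 6 arrays, filled where the adjusted p is below 0.05. G0s2 is the only gene filled in DKO against WT, and Plin2 is the gene nearest 0 for Ing1 loss. The 3 comparisons against WT share the WT arrays.

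Neither single knockout gave a call among the 10 genes against WT. In Ing1-KO against WT limma called none of the 10, and of all features 0.0% were called higher and 0.00318% lower. G0s2 differed by 0.59 ± 0.18 (limma, adjusted p = 0.496), Plin5 by 0.78 ± 0.32 and Lipe by 0.64 ± 0.25, these 3 having an unadjusted p below 0.05 against 8.6% of features. The Ing1-KO arrays lay above the WT arrays for G0s2, Lipe and Plin1, 3 of the 10, against 7.24% of features. Mgll differed by 0.00 ± 0.22 and Plin2 by -0.19 ± 0.34, so that 9 of the 10 were above 0 against 43.8% of features. In Gadd45a-KO against WT limma called none of the 10 and 0.0% of all features in either direction, and none of the 10 had an unadjusted p below 0.05, against 2.35% of features. The median was -0.18. Plin5 was the only positive gene, at 0.31 ± 0.32, against 50% of features, and Plin2 was the lowest at -0.53 ± 0.34. For 6 of the 10 the sign turned when WT replicate 2 was left out.

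Gadd45a loss over 6 against 6 arrays gave a median of 0.05, with values from -0.08 to 0.48, of which 7 of 10 were positive against 50% of features. No gene of the 10 was called by limma or had an unadjusted p below 0.05 (0.935% of features did), where 0.00318% of features were called higher, a single feature that is the Gadd45a probe itself. The widest of the 10 was Plin5, 0.48 ± 0.23 with an interval of -0.02 to 0.97. For G0s2 the interval was -0.06 to 0.49. In DKO against Ing1-KO all 10 were positive against 51.8% of features, with a median of 0.29, and limma called none of the 10 and 0.00318% of features higher. G0s2 differed by 0.69 ± 0.18 (unadjusted p = 0.00221, adjusted p = 0.948 by limma), the only one of the 10 with an unadjusted p below 0.05 against 3.51% of features, and for G0s2, Plin5 and Pnpla2, 3 of the 10, the groups did not overlap, against 5.14% of features. The interaction asks whether Ing1 loss acts differently where Gadd45a is labelled as lost. It was positive for all 10 (for 9 without WT replicate 2 or without Gadd45a-KO replicate 3), against 51.2% of features, and largest for G0s2 at 0.94 ± 0.25 (interval 0.40 to 1.49; unadjusted p = 0.00265, adjusted p = 0.728 by limma). Among the 10, G0s2 and Mgll (0.69 ± 0.31) had an unadjusted p below 0.05 against 5.93% of features, none passed the adjusted threshold, and 0.0% of features did, so that a difference between the 2 effects of Ing1 loss was not established.

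Mgll, Abhd5 and Cidec carry several probes, and the probes of a gene differed in size of effect but not in direction for Ing1 loss. The brightest probe of Abhd5 gave 0.51 ± 0.17, its second 0.71 ± 0.15 and its dimmest 0.89 ± 0.16, the last 2 called when every probe was tested (limma, adjusted p = 0.0141 and 0.00761 over all probes). The dim Cidec probe gave 1.17 ± 0.18 (limma, adjusted p = 0.00556) where the bright one gave 0.45 ± 0.15. It read 13.98 to 14.61 on the arrays without Ing1 and 12.29 to 13.49 on those with it, ranges that did not overlap. For Mgll the probes gave 0.35 ± 0.16, 0.34 ± 0.20, 0.73 ± 0.19 and 0.45 ± 0.23 from brightest to dimmest, of which the third was called (limma, adjusted p = 0.028). The third and the dimmest probe of Mgll are annotated to another transcript than the first and second, and the probes of Abhd5 and of Cidec each to 1 transcript. With the dimmest probe of each gene in place of the brightest, a choice made after the values were seen, 7 of the 10 genes were called for Ing1 loss. The share of all features called higher was then 6.53%.

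**Figure D4:**
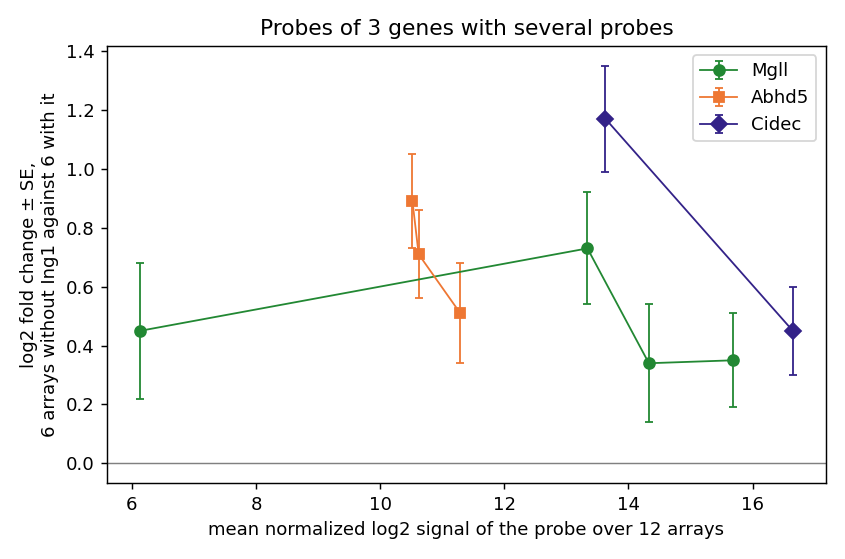
Log2 fold change (± SE) for Ing1 loss, 6 against 6 arrays, of the 9 probes of Mgll, Abhd5 and Cidec against the mean normalized log2 signal of the probe over 12 arrays, with lines joining the probes of a gene. All 9 are above 0, and the brightest probe of Cidec and of Abhd5 has the smaller change.

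The wider pathway was described through 4 lists of other genes. Of 12 other neutral lipid hydrolases tested, 7 rose with Ing1 loss and none fell, with a median of 0.39, where 6.93% of all features were called higher and 9.09% lower: Ces1d, a carboxylesterase that hydrolyses triglyceride in fat, by 0.97 ± 0.16, Ces1f by 0.86 ± 0.18, Pnpla3 by 0.70 ± 0.18, Ddhd2 by 0.49 ± 0.11, Lpl, which frees fatty acids from lipoproteins, by 0.46 ± 0.11, Pnpla8 by 0.45 ± 0.12 and Pnpla1 by 0.33 ± 0.10. Of 17 other lipid droplet proteins tested, 3 rose, with a median of 0.28: Fitm2, which helps droplets bud from the endoplasmic reticulum, by 0.80 ± 0.16, Bscl2 (seipin), which acts in the same process, by 0.60 ± 0.15, and the small GTPase Rab18 by 0.37 ± 0.07. In DKO against Gadd45a-KO the counts called higher were 6 of 12 and 5 of 17, against 6.49% of all features, and in DKO against WT none of either list was called by limma.

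Of 25 genes of lipolysis signalling, 11 rose with Ing1 loss and 1 fell, with a median of 0.55, against 6.93% of all features called higher and 9.09% lower. The members that rose include brakes as well as accelerators of the pathway. The cyclic AMP phosphodiesterases Pde3b (0.64 ± 0.12), which insulin activates, and Pde4d (0.55 ± 0.11), the insulin receptor Insr (0.60 ± 0.14) and its substrate Irs1 (0.64 ± 0.15), and the Gi-coupled receptors Hcar1 (0.82 ± 0.19), Hcar2 (0.80 ± 0.20) and Ptger3 (0.71 ± 0.21) are known to restrain lipolysis. Adcy3 (0.79 ± 0.21), which makes cyclic AMP, and Prkg1 (0.64 ± 0.18) belong to the activating arm, and Acvr1c (0.74 ± 0.20) is a receptor known to lower lipase expression. Prkar2b (0.66 ± 0.12), a regulatory subunit of protein kinase A, is placed in neither group here. The gene that fell was Adra2a (-0.56 ± 0.12), an inhibitory adrenergic receptor. Of 20 genes of fatty acid and glycerol handling, 7 rose and 1 fell, against the same shares, with a median of 0.47. Those that rose were the triglyceride synthesis enzymes Lpin1 (1.00 ± 0.15), Dgat1 (0.77 ± 0.14), Gpat3 (0.77 ± 0.20) and Gpat4 (0.44 ± 0.12), then Pck1 (0.67 ± 0.13), which feeds glycerol synthesis, Acsl1 (0.67 ± 0.13), which activates fatty acids, and the fatty acid transporter Cd36 (0.65 ± 0.13). The glycerol channel Aqp3 fell (-0.95 ± 0.16). In DKO against Gadd45a-KO 11 rose and 1 fell of the signalling genes, and 7 rose and 1 fell of the other list, against 6.49% and 8.47% of all features, while in DKO against WT none of either was called by limma. Without the 3 arrays high in muscle markers no feature at all was called higher for Ing1 loss, and 1 was called lower, so that none of the higher counts stood in that fit.

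Several lists of cell type markers held genes called for Ing1 loss, while the muscle list and the epididymis and testis list held none. Over all features, 6.93% were called higher and 9.09% lower for Ing1 loss, the shares to set beside the counts below. White adipocyte markers had 4 of 12 called higher for Ing1 loss (Lep, Lpl, Acvr1c and Cebpa) and a median of 0.47, against 0.50 for the 10 genes. Their median was 0.10 in Ing1-KO against WT, where the 10 genes had 0.36. In DKO against Gadd45a-KO it was 0.80, where the 10 genes had 0.70. The summed log2 signal of these markers was 19.97 to 20.63 in WT, 19.82 to 20.10 in Gadd45a-KO, 20.19 to 20.31 in Ing1-KO and 20.24 to 20.77 in DKO. Of 10 T cell markers tested 8 fell with Ing1 loss, with a median of -0.70 and a summed signal of 16.61 to 17.16 with Ing1 and 15.32 to 16.64 without it. Of 10 neutrophil markers 7 fell, with a median of -1.77. Their mean deviations were 0.32, -0.04 and -0.99 on the WT arrays, 3.09, 1.92 and 0.62 on the Gadd45a-KO arrays, 0.06, -1.21 and -0.95 on the Ing1-KO arrays and -1.37, -0.62 and -0.83 on the DKO arrays. The Gadd45a-KO arrays were thus the highest as a group. The median was -3.23 in DKO against Gadd45a-KO, with 7 called lower, against 8.47% of all features. It was -0.23 in Ing1-KO against WT, with none called by limma (0.00318% of features were called lower). None had an unadjusted p below 0.05 there, against 8.6% of features. Of 10 macrophage markers 3 fell (Csf1r, C1qc and Lyz2), with a median of -0.35. Brown and beige markers had 2 of 11 called higher (Ppargc1a and Prdm16) and a median of 0.82, with Ucp1 at 1.58 ± 0.55 (limma, adjusted p = 0.0688), and muscle markers 0 of 12 with a median of 0.83. Of 6 endothelial and 6 adipocyte progenitor markers, 1 each was called higher (Tek and Dpt). Of 6 mesothelial markers 2 were tested, of which Lrrn4 was called higher, while Msln, Upk3b, Upk1b and Wt1 were above background on no array. Of 4 epididymis and testis markers tested none was called, with a median of -0.10. Without the 3 arrays high in muscle markers at most 1 of all these markers could be called, since 1 feature was. The part of these cell types in the values of the 10 genes was not tested.

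**Figure D5:**
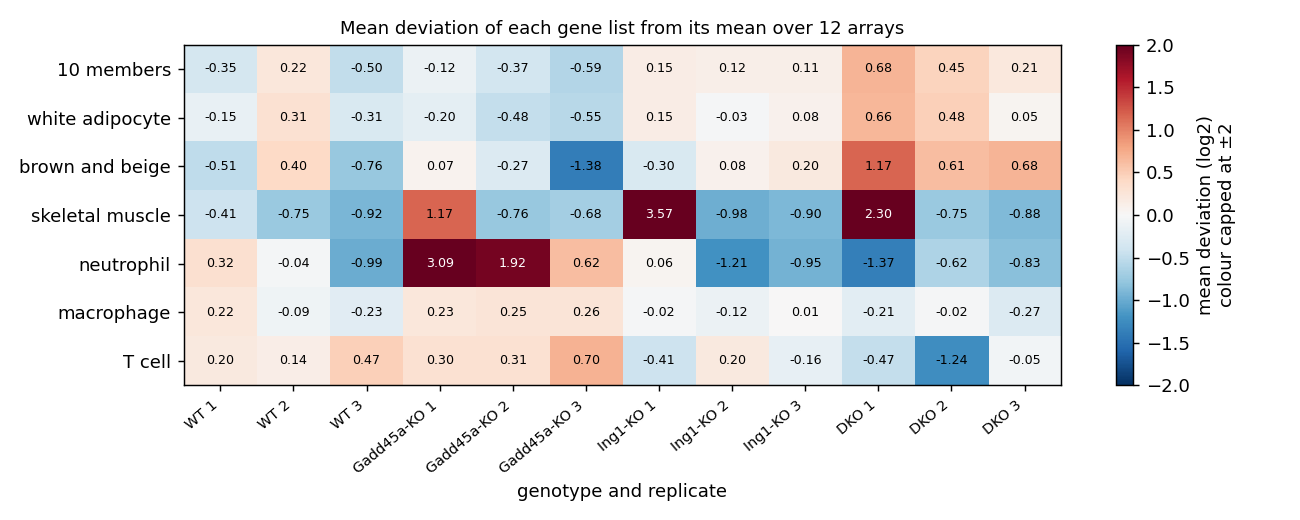
Mean deviation (log2) of the 10 genes and of 6 marker lists from their means over 12 arrays, with 1 column per array and the value printed in each cell. The 10 genes lie between 0.11 and 0.68 on the arrays without Ing1 and between -0.59 and 0.22 on the others.

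Across the 12 arrays, likeness to G0s2 and to Plin5 was measured as the root mean square difference of log2 values after centring each gene on its own mean. Nearest to G0s2 were Retsat (0.22), an enzyme of retinol metabolism, Ces1d (0.23), Fibin (0.24), Fmo1 (0.24) and Acadl (0.24), an enzyme of fatty acid oxidation. Like G0s2 they were lowest in Gadd45a-KO and highest in DKO, with group means of -0.57 and 0.67 for Retsat against -0.66 and 0.87 for G0s2. Nearest to Plin5 was Ppara (0.18), a nuclear receptor for fatty acids, followed by Acaa2, Coq8a, Cox8b and Suclg1 at 0.27, which act in mitochondria. These genes were picked for their likeness, and no test applies to it.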

How the data were processed

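Gene expression was measured on 12 one-colour Agilent arrays (3 for each of 4 genotypes, pooled RNA on each). The scanner intensity values are the authors' deposited processed signals, background-subtracted by Feature Extraction per the file headers. A deposited table of log2 values for 38927 probes, made with limma 3.26.9 per the submitters' processing notes, served as an alternative; its columns matched their own arrays best (r at least 0.843, at most 0.422 with others), and its normalization is not given in the sources used here.

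Intensities were log2-transformed and shifted to a common 75th percentile. The filter asked for a signal well above background on 3 or more of the 12 arrays, and the brightest probe stood for a gene. Symbols came from RefSeq accessions (27509 of 29150 probes matched). One limma model (3.58.1, R 4.3.3) with 4 genotype means, 8 residual degrees of freedom and trended, robust variances gave 8 comparisons, with Benjamini-Hochberg adjustment over 31453 features. G0s2 less Pnpla2 within an array was tested by exact permutation. The code was tested on simulated data. The number of arrays limits the precision, and p-values measure the spread between pools.

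The replicate number is also the slide and the scan, per the file headers. Deviations of same-numbered arrays correlated by more than r = 0.1 in 9 of 18 pairs (median 0.122), against 8 of 36 other pairs (median -0.0985). Not every pair passed, so the reported fit has no block, and values within slides and with the slide as a block stand beside the results. The genes and lists were chosen with earlier results of these data known. The text names all 10 genes, the 2 targeted genes, list members past the threshold or otherwise up to 4 with the smallest p, and the 5 genes most like G0s2 and Plin5. The alternatives were other scalings, normexp with offset 50 on the median spot and background signals followed by quantile normalization, filters, variance settings, probes, blocks for slide, row and column, and each array left out.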

Additional observations from a re-analysis of the deposited data

How the results depend on the processing

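With each array left out in turn, the count of the 10 genes called by limma ran from 2 to 9 for Ing1 loss (5 in the report), from 1 to 8 for DKO against Gadd45a-KO (5) and from 0 to 5 for DKO against WT (1), and it was 0 throughout for the other 5 comparisons. The share of all features called higher in the same fits ran from 2.97% to 10.6% for Ing1 loss. It ran from 0.649% to 9.8% for DKO against Gadd45a-KO and from 0% to 4.31% for DKO against WT. For Ing1 loss the count was 8 with quantile normalization, 9 with normexp (which also changed the signal column and the scaling), 9 with the authors' deposited values, 1 with the array row as a block and 0 without the 3 arrays highest in muscle markers, an alternative chosen after seeing the data, as was the dimmest probe. Of all features, 7.82%, 6.88% and 6.02% were called higher in the first 3 of these settings, 0.0509% with the row block and 0% without the muscle-high arrays. For DKO against Gadd45a-KO the count was 8 with quantile normalization, 2 without a filter, 1 with plain eBayes, 2 from the arrays compared alone, 0 with the row block, 3 with the column block and 0 without the muscle-high arrays. The shares of all features called higher were, in the same order, 7.19%, 2.73%, 4.46%, 0.754%, 0.00318%, 4.85% and 0%. For DKO against WT the count was 0 with plain eBayes, the arrays compared alone, the row block, the column block and without the muscle-high arrays. There 0.00318% of all features were called higher with plain eBayes and with the column block, and 0% in the rest of these settings. With the replicate number as a block it was 2 for DKO against WT, 7 for Ing1 loss and 7 for DKO against Gadd45a-KO; same-numbered arrays had deviations correlated from -0.276 to 0.424. G0s2 less Pnpla2 ran from 0.63 to 0.77 with single arrays left out. The cause of these shifts was not tested, beyond the fewer arrays of some settings.

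Over all features, the calls higher and lower moved from 26 and 25 to 45 and 18 with centring on the median in DKO against WT, from 2179 and 2859 to 2930 and 1667 for Ing1 loss, and from 2040 and 2664 to 2507 and 1739 in DKO against Gadd45a-KO. In DKO against WT they were 1355 and 1952 without DKO replicate 3, 796 and 396 without WT replicate 2, 388 and 265 with the slide block, 67 and 54 with normexp, 12 and 13 without a filter and 0 and 1 with the row block. For Ing1 loss they were 16 and 23 with the row block and 935 and 966 without Ing1-KO replicate 1. In DKO against Gadd45a-KO they were 1337 and 1725 without a filter, 237 and 265 from the arrays compared alone, 1 and 2 with the row block and 204 and 335 without Gadd45a-KO replicate 3.

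Of 80 fold changes of the 10 genes, 20 changed sign under some alternative, and 0 of those had been called. In Gadd45a-KO against WT, leaving out arrays gave -0.23 to 0.12 for Abhd5, -0.29 to 0.04 for Cidec, -0.43 to 0.08 for Lipe, -0.25 to 0.10 for Plin1, -0.11 to 0.13 for Plin4 and -0.44 to 0.05 for Pnpla2. There Abhd5 was 0.05 with the row block, Plin1 was 0.03 with normexp and 0.05 in the authors' values, and Plin4 was 0.02 with median centring, 0.01 with normexp, 0.06 in the authors' values, 0.03 with the row block and 0.02 with the column block. In DKO against Ing1-KO, leaving out arrays gave -0.03 to 0.27 for Cidec and -0.07 to 0.19 for Lipe. There Cidec was -0.08 with its dimmest probe, and Lipe was -0.01 with quantile normalization, -0.09 with normexp, -0.10 in the authors' values and -0.23 with the row block. For Gadd45a loss, leaving out arrays gave -0.09 to 0.08 for Cidec, -0.20 to 0.06 for Lipe, -0.08 to 0.12 for Mgll, -0.22 to 0.10 for Plin2 and -0.10 to 0.14 for Pnpla2. There Cidec was 0.00 with median centring, Mgll was -0.04 with the row block, 0.00 with the column block, -0.10 without the muscle-high arrays and -0.22 with its dimmest probe, Plin1 was 0.00 without the muscle-high arrays, and Pnpla2 was 0.00 with quantile normalization, -0.01 with normexp and -0.05 without the muscle-high arrays. In Ing1-KO against WT, leaving out arrays gave -0.17 to 0.23 for Mgll, -0.44 to 0.14 for Plin2 and -0.10 to 0.39 for Pnpla2. There Mgll was -0.07 without the muscle-high arrays and -0.08 with its dimmest probe, and Plin2 was 0.04 with the row block and 0.01 without the muscle-high arrays. Leaving out arrays gave -0.06 to 0.51 for Plin2 in DKO against WT, and -0.04 to 0.47 for Lipe and -0.05 to 0.56 for Plin5 in the interaction.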
